A study of Drosophila melanogaster with 6 samples.

Results

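Cuticle protein genes were examined by RNA-seq of Drosophila melanogaster brains from the third larval instar. Members were proposed with earlier results of these data known, and were then set by a rule on symbols that used no measured value. The rule took all genes whose symbol starts with Cpr and a digit, Lcp, Ccp84A or Twdl, together with Tb. This gave 121 of the 17737 genes in the table: 70 Cpr genes, 17 Lcp genes, 7 Ccp84A genes and 27 genes of the Tweedle family, Tb included. The annotation lists 118 as protein coding and 3 as pseudogenes (Lcp1Psi, Lcp65APsi and TwdlU).

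The DNMT3L group (3 libraries) came from a cross of elavC155-Gal4 with a stock carrying P(UAS-DNMT3L,w+) over CyO and the balancers TM2 and TM6B. The control group (3 libraries) carried elavC155-Gal4 alone. Both groups thus share this driver, which expresses the yeast activator Gal4 in neurons, so that a UAS transgene is active in neurons. DNMT3L is a mammalian cofactor of DNA methyltransferases without catalytic activity of its own. By the labelled stock, each DNMT3L larva inherits TM2 or TM6B, while the control label lists neither. The labels name a second parental stock for DNMT3L only, and give no copy number of the driver in either group. Balancers, background and driver dose may thus differ with the group, and their part was not tested. Nothing in the labels states a selection of transgene carriers over larvae that inherited CyO, or states that the libraries came from separate animals, so p-values measure the spread between these libraries.

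Insect cuticle is a layered matrix of chitin fibres and proteins that the epidermis secretes at its apical surface and rebuilds at every molt. Cpr proteins carry the Rebers and Riddiford domain, which binds chitin, and the Lcp and Ccp84A proteins are named for larval cuticle and for a gene cluster of the same domain class. Tweedle proteins form a separate, insect-specific family that shapes the larval body. Brain cells make no exoskeleton, while epidermis, trachea and imaginal discs do make cuticle or chitin-based matrix.

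The 6 libraries held 17928420 to 19251845 counts, which puts a floor of 3 counts at 0.156 to 0.167 CPM, the count scaled to library size. Libraries DNMT3L 1 and control 1 stood apart. Neuron markers (elav, nSyb, brp, Syt1, para and cac), all 6 of them detected, summed to 1154, 561 and 689 CPM in DNMT3L 1 to 3, against 97.3, 472 and 383 CPM in control 1 to 3. Transcript size moved with the libraries, most in these 2. Across all 9495 genes tested, the deviation of a library from the 6-library mean correlated with exonic size. Spearman rho was 0.67, 0.21 and 0.27 in DNMT3L 1 to 3, and −0.70, 0.50 and −0.36 in control 1 to 3. These carry no p because genes of a library are not independent. Cuticle protein genes are short, with a median exonic size of 834 bases among those tested, against 2170 bases over all genes tested. Member sums, member medians and many single-gene estimates are also given without 1 or both of these libraries.

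The members as a whole made up 0.024% to 0.050% of all counts in DNMT3L libraries, against 0.055% to 0.120% in control libraries. Summed over all 121 genes, cuticle protein transcripts reached 231, 478 and 337 CPM in DNMT3L 1 to 3, against 1399, 539 and 681 CPM in control 1 to 3 (CPM values use TMM scaling throughout). The groups did not overlap, and the means were 349 ± 124 and 873 ± 461 CPM (SD, n = 3 each), 2.50-fold lower in DNMT3L. Without control 1 the sum was 1.75-fold lower in DNMT3L. In whole brains, fewer cells of a type and less RNA per cell cannot be told apart.

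Lcp1, Lcp2, Lcp3 and Lcp4, the classical proteins of the last larval cuticle, gave 33.3% to 67.3% of these counts in DNMT3L libraries and 53.5% to 75.1% in control libraries. Their own sum was 76.9, 322 and 191 CPM in DNMT3L, against 1051, 289 and 404 CPM in control, and here DNMT3L 2 lay above control 2. The mean of this sum was 2.96-fold lower in DNMT3L, and 1.76-fold lower without control 1. The other 117 genes summed to 154, 156 and 146 CPM in DNMT3L and to 349, 251 and 277 CPM in control, 152 ± 5.52 against 292 ± 50.6 CPM, 1.92-fold lower. This remaining sum was nearly level within DNMT3L, did not overlap with control, and was 1.73-fold lower without control 1. Its genes were not level there. Cpr49Ac, the highest of them by mean CPM, had 72, 23.6 and 29.7 CPM in DNMT3L 1 to 3. The median log2 deviation of the tested genes in this sum was −0.86, −0.32 and −0.33 in the same libraries.

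**Figure D1:**
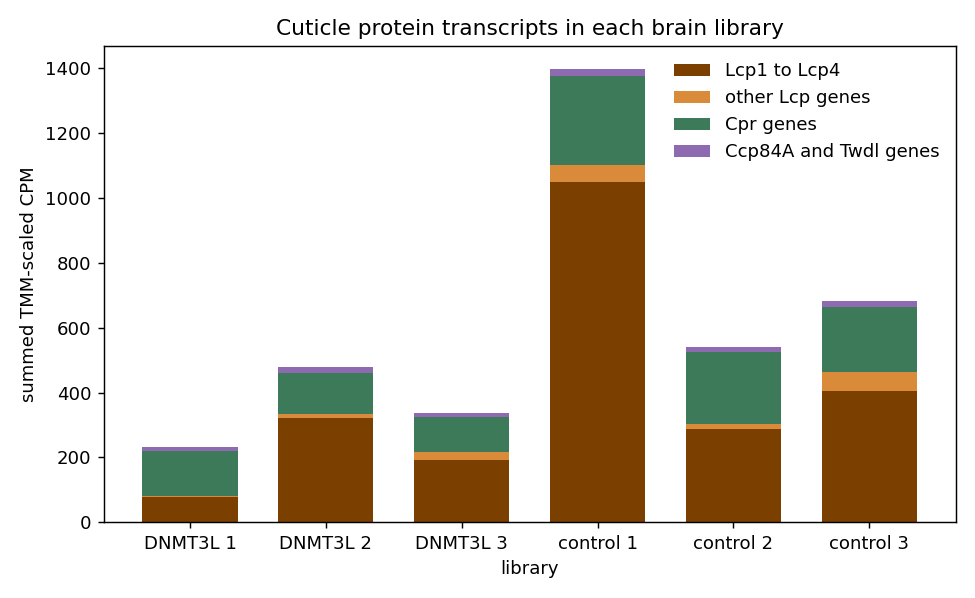
Summed TMM-scaled CPM (vertical axis) of the cuticle protein genes in each library, stacked by Lcp1 to Lcp4, other Lcp genes, Cpr genes, and Ccp84A with Twdl genes. DNMT3L libraries reach 231 to 478 CPM and control libraries 539 to 1399 CPM, and the Lcp1 to Lcp4 block varies most, being tallest in control 1.

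Most members were at the edge of detection. No read was found for 17 of the 121 genes, and 45 passed the low-count filter: 29 Cpr, 9 Lcp, 3 Ccp84A and 4 Tweedle genes. One of those 45, Lcp65Ag3, passed through the control libraries alone. Others, such as Lcp65Ag1 and Cpr67Fa2, had DNMT3L libraries under the filter's cutoff of 0.548 CPM and needed control libraries to pass. A mean level of at least 1 FPKM, a level per transcript length, was reached by 41 members, and 13 reached 10 FPKM. The highest was Lcp4 at 221 FPKM, rank 330 among all genes, followed by Lcp1 at 85.1 FPKM, Lcp3 at 68.3 FPKM, Lcp2 at 55.8 FPKM and Cpr78E at 34.5 FPKM.

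No cuticle protein gene passed the edgeR quasi-likelihood test adjusted by Benjamini-Hochberg over all 9495 genes, where the lowest adjusted p of a member was 0.29. None of the 9495 genes passed either (0% called, lowest adjusted p = 0.0538), while 1427 (15%) had an unadjusted p under 0.05. The direction of the estimates was nonetheless shared. Log2 fold changes of DNMT3L over control were negative for 43 of the 45 tested members, against 52.3% of all genes, with a median of −1.32 for the members and −0.03 for all genes. Single estimates ran from −3.60 to 0.41. An unadjusted p under 0.05 was found for 12 members, each lower in DNMT3L, against 8.79% of all genes in that direction. Complete separation, with every DNMT3L library below every control library, held for 12 members as well, against 14.1% of all genes, and for no member in the other direction (28.1% of all genes in either). Both counts of 12 and the estimate of −3.60 include Lcp65Ag3, whose low DNMT3L level is tied to its passing the filter through control alone. Both counts also include Lcp65Ag1 and Cpr67Fa2, which needed control libraries to pass it. DESeq2, the alternative count test, called 7 of the 65 members to which it gave an adjusted p, all lower in DNMT3L: Lcp2, Lcp65Af, Lcp65Ag1, Lcp65Ag3, Lcp65Ae, Cpr66D and Cpr11A. It called 2.36% of all genes in either direction and 1.51% as lower. With limma on log2(FPKM + 1), 0 of 41 members and 0.115% of all genes were called. A filter on the mean CPM over all libraries, added after seeing the data because the filter used can pass a gene through 1 group, left 37 members with a median of −1.32, 36 of them negative.

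**Figure D2:**
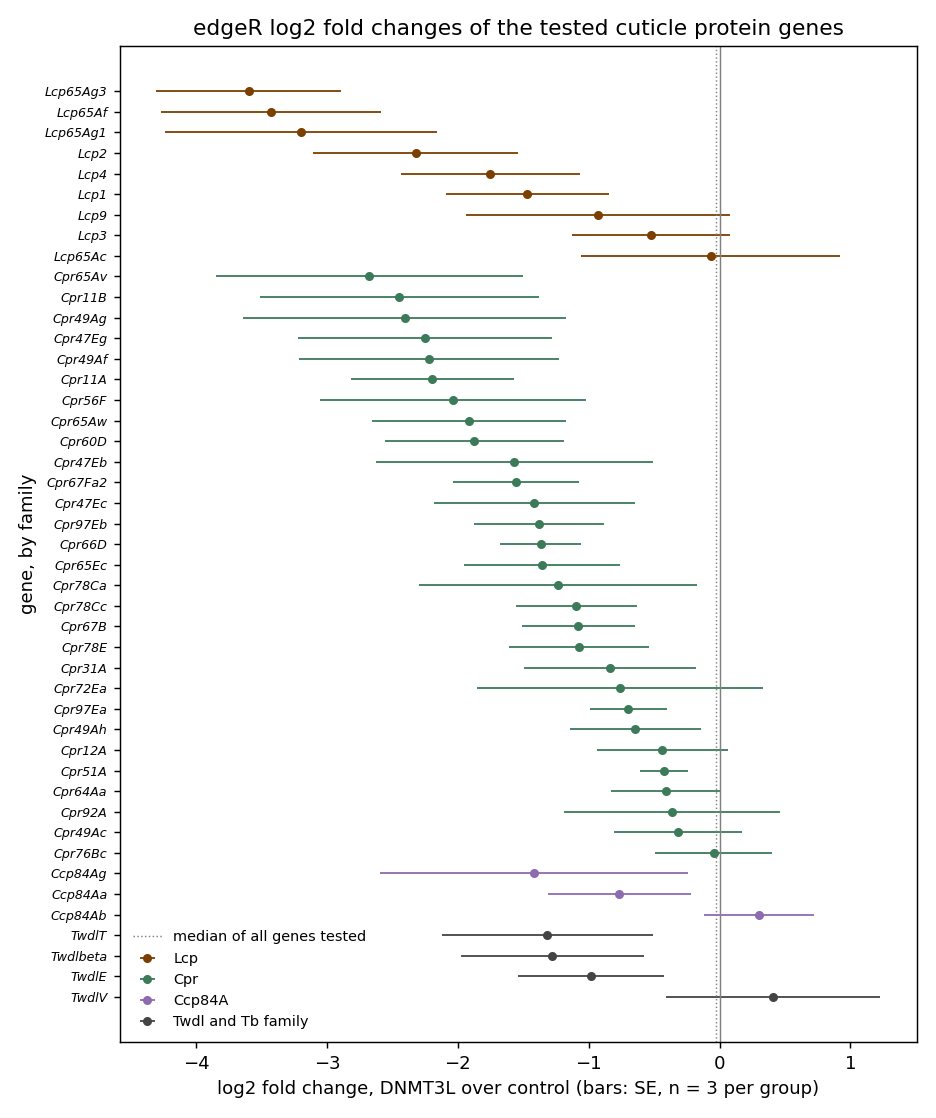
Log2 fold change of DNMT3L over control (horizontal axis, edgeR, bars are SE, n = 3 per group) for the 45 tested cuticle protein genes, ordered within families. Points lie left of 0 for 43 genes, TwdlV and Ccp84Ab lie right of it, and the dotted line marks the median of all genes tested at −0.03.

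Medians by family are descriptions, and differences between families were not tested. All 9 tested Lcp genes were negative with a median of −1.75, and all 29 tested Cpr genes were negative with a median of −1.36. Of the 3 tested Ccp84A genes 2 were negative (median −0.77), and of the 4 tested Tweedle genes 3 were negative (median −1.13). With each library's trend on exonic size removed, the member median was −0.97 with 41 of 45 negative, beside −0.01 over all genes. The median without control 1 was −1.09, and −0.79 without DNMT3L 1 and control 1. The order of the families depended on these libraries: without control 1 the medians were −1.16 for Lcp, −1.12 for Cpr, −0.60 for Tweedle and −0.09 for Ccp84A genes. Without both libraries they were −0.67 for Lcp, −0.90 for Cpr, −0.94 for Tweedle and 0.29 for Ccp84A genes.

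Lcp1 to Lcp4 lie together with the pseudogene Lcp1Psi on chromosome arm 2R:8430115-8438495 (BDGP6). Lcp4 had 32.2, 131 and 92.9 CPM in DNMT3L, against 524, 116 and 222 CPM in control. Its groups overlap, since DNMT3L 2 exceeded control 2 and control 1 stood far above the rest. The log2 fold change was −1.75 ± 0.69 (SE; edgeR adjusted p = 0.33), and −0.99 without control 1. Lcp1, at the other end of the cluster, had 20.5, 87.7 and 43.4 CPM in DNMT3L and 239, 102 and 78.8 CPM in control. It overlapped between groups in the same way, through DNMT3L 2 and control 3, and its estimate was −1.47 ± 0.62 (edgeR adjusted p = 0.33) and −0.84 without control 1.

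Lcp2 was the 1 gene of this cluster whose groups separated. It had 8.41, 34.8 and 12.7 CPM in DNMT3L, against 189, 39.1 and 51.9 CPM in control. The gap between the nearest libraries, DNMT3L 2 and control 2, was small beside the spread within either group. Its log2 fold change was −2.32 ± 0.79, with an edgeR adjusted p of 0.33 and a DESeq2 adjusted p of 0.0375, and −1.29 without control 1. Lcp3, by contrast, had 15.8, 68.4 and 42.1 CPM in DNMT3L and 98.7, 30.9 and 51.6 CPM in control. The groups are interleaved, and the estimate of −0.52 ± 0.60 (edgeR adjusted p = 0.58) was 0.03 without control 1. Lcp1 and Lcp2, and likewise Lcp3 and Lcp4, are related copies, and how reads were divided between them in the counting is not stated in the sources used here.

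The Lcp65A genes form a run of 18 members with the Cpr65A genes on 3L:6130386-6161589, in which 6 genes were tested, all negative, with a median of −2.94. Without Lcp65Ag3, which the controls alone carried past the filter, the median of the other 5 was −2.68. The 11 Lcp65A genes summed to 1.33, 9.10 and 5.31 CPM in DNMT3L, against 40.1, 8.19 and 26.7 CPM in control. DNMT3L 2 lay just above control 2, so the summed levels overlapped. The mean of this sum was 4.76-fold lower in DNMT3L, and 3.32-fold lower without control 1.

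Lcp65Af (3L:6136215-6136791) had 0.639, 1.43 and 1.52 CPM in DNMT3L, against 25.7, 2.71 and 10.4 CPM in control. Every DNMT3L library was below every control library, and the control values themselves spread widely. The log2 fold change was −3.43 ± 0.84 (edgeR adjusted p = 0.30, DESeq2 adjusted p = 0.000865), and −2.45 without control 1. Lcp65Ag1 had 0, 0.37 and 1.16 CPM in DNMT3L, against 5.71, 2.12 and 6.55 CPM in control. It too was separated, at −3.20 ± 1.04 (edgeR adjusted p = 0.33, DESeq2 adjusted p = 0.0411), and the estimate ran from −4.64 without DNMT3L 3 to −2.64 without DNMT3L 1. Lcp65Ag3, the next numbered copy, had 0, 0.106 and 0.101 CPM in DNMT3L, all under the floor of 3 counts, and 0.912, 0.705 and 1.14 CPM in control.

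Because Lcp65Ag1, Lcp65Ag2 and Lcp65Ag3 are numbered copies that may share reads, their reads were also added. Together they had 0, 9 and 26 reads in DNMT3L, against 140, 55 and 140 reads in control, so the separation did not depend on how reads were divided among the copies. Lcp65Ae was removed by the low-count filter, with 1, 2 and 1 reads in DNMT3L and 7, 7 and 63 reads in control. Most of its reads came from control 3. Lcp65Ac, a gene in the middle of the same run, had 0.213, 5.98 and 1.77 CPM in DNMT3L and 3.53, 1.25 and 3.59 CPM in control. Those values overlap fully, with an estimate of −0.07 ± 0.99 that became 0.22 after removal of the length trend (edgeR adjusted p = 0.97 before it). Lcp9, on 2R outside both clusters, had 1.65, 4.13 and 20 CPM in DNMT3L and 10.8, 5.32 and 33.1 CPM in control. Its groups are interleaved, at −0.93 ± 1.01 (edgeR adjusted p = 0.56), and the estimate was 0.09 without control 3. The gene overlaps the antisense gene asRNA:CR44067, as Lcp65Ag3 overlaps asRNA:CR46005, and whether the counting used strand is unknown from the sources used here.

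**Figure D3:**
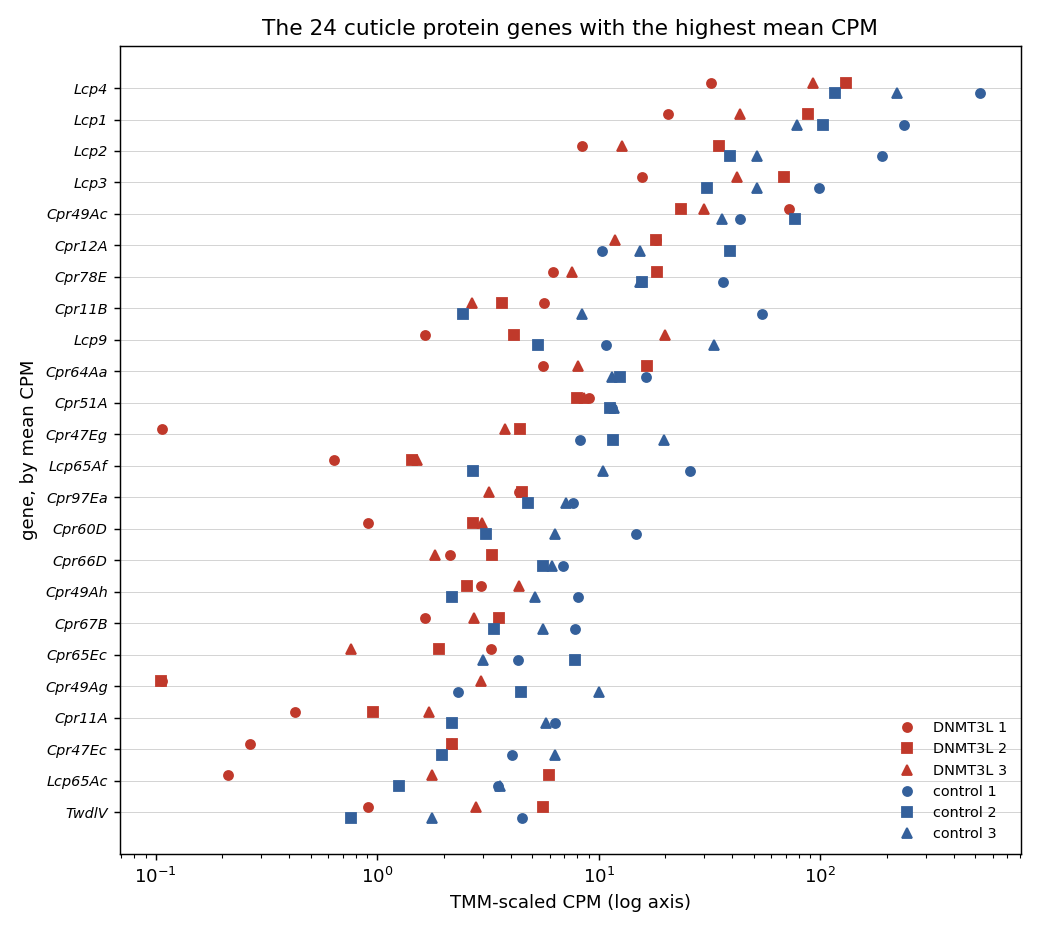
TMM-scaled CPM per library (horizontal log axis) of the 24 cuticle protein genes with the highest mean, DNMT3L libraries in red above control libraries in blue. The red points of Cpr51A, Cpr66D and Lcp65Af lie wholly left of the blue ones, while those of Lcp4, Lcp3 and Cpr49Ac are interleaved with them.

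Among the Cpr genes, the sum of all 70 was 141, 126 and 110 CPM in DNMT3L, against 275, 223 and 202 CPM in control, 1.86-fold lower without overlap and 1.69-fold lower without control 1. The Cpr genes with the most reads did not separate by group. Cpr49Ac had 72, 23.6 and 29.7 CPM in DNMT3L and 43.3, 76.7 and 35.9 CPM in control. Cpr12A had 18.1, 18.1 and 11.8 CPM in DNMT3L and 10.3, 39.2 and 15.4 CPM in control. Both overlapped, at −0.32 ± 0.49 and −0.44 ± 0.50 (edgeR adjusted p = 0.68 and 0.58), and both estimates were positive without control 2 (0.07 and 0.31). Cpr64Aa likewise overlapped, with 5.59, 16.6 and 8.09 CPM in DNMT3L and 16.4, 12.4 and 11.4 CPM in control.

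Cpr66D, a component of the corneal lens of the adult eye, had 2.13, 3.28 and 1.82 CPM in DNMT3L, against 6.93, 5.59 and 6.15 CPM in control. Here the spread within each group was narrow and the groups were well apart. The estimate of −1.37 ± 0.31 (3L:8640439-8643584) did not pass edgeR's test after adjustment (adjusted p = 0.29) and passed that of DESeq2 (adjusted p = 0.00835). It ran from −1.65 to −1.20 when each library was left out in turn, and was −1.04 with the length trend removed. Cpr51A was as tight, with 9, 7.99 and 8.6 CPM in DNMT3L and 11.4, 11.2 and 11.7 CPM in control. Its difference was small, −0.42 ± 0.18 (edgeR adjusted p = 0.33), and it was −0.02 with the length trend removed. Cpr47Eg, Cpr97Ea, Cpr97Eb, Cpr60D, Cpr11A and Cpr67Fa2 were the other tested Cpr genes without overlap. Of these, Cpr97Eb had 0.266, 0.794 and 0.607 CPM in DNMT3L, against 1.95, 1.41 and 1.02 CPM in control, at −1.38 ± 0.50 (edgeR adjusted p = 0.33).

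Cpr11A and Cpr11B, both on the X chromosome, differed in how their values spread. Cpr11A (X:12486970-12489448) had 0.426, 0.953 and 1.72 CPM in DNMT3L, against 6.32, 2.17 and 5.81 CPM in control, separated at −2.19 ± 0.63 (edgeR adjusted p = 0.33, DESeq2 adjusted p = 0.0307), and at −2.78 without DNMT3L 3. Cpr11B had 5.64, 3.65 and 2.68 CPM in DNMT3L and 54.6, 2.44 and 8.42 CPM in control. Its estimate of −2.45 ± 1.07 (edgeR adjusted p = 0.33) came mostly from control 1, and was −0.44 without that library. Cpr78E showed the same dependence, with 6.23, 18.3 and 7.54 CPM in DNMT3L and 36.5, 15.7 and 15.4 CPM in control, at −1.08 ± 0.53 and −0.54 without control 1.

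A further group of Cpr genes was nearly silent in 1 or more DNMT3L libraries. Cpr47Eg had 0.106, 4.39 and 3.79 CPM in DNMT3L, against 8.21, 11.6 and 19.8 CPM in control, separated at −2.25 ± 0.97 (edgeR adjusted p = 0.33). Cpr49Ag had 0.106, 0.106 and 2.93 CPM in DNMT3L and 2.31, 4.45 and 10.1 CPM in control, overlapping through DNMT3L 3 and control 1. Cpr65Av had 0.0532, 0.423 and 0.759 CPM in DNMT3L and 4.32, 0.163 and 3.59 CPM in control, where control 2 alone was as low as DNMT3L. Their estimates, −2.40 ± 1.23 and −2.68 ± 1.18, had edgeR adjusted p-values of 0.33 each. Leaving out 1 library moved Cpr49Ag between −5.63 (without DNMT3L 3) and −1.68 (without control 3), and Cpr65Av between −3.45 and −2.16.

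Cpr67Fa1 and Cpr67Fa2, numbered copies on 3L, went opposite ways. Cpr67Fa2 had 0.213, 0.476 and 0.607 CPM in DNMT3L, against 1.58, 0.922 and 1.37 CPM in control, separated at −1.56 ± 0.48 (edgeR adjusted p = 0.33). Cpr67Fa1 was removed by the low-count filter, though its mean of 0.56 CPM exceeded that of Lcp65Ag3 (0.494 CPM), which passed. Cpr67Fa1 had 0, 23 and 39 reads in DNMT3L and 0, 1 and 2 reads in control, and is named here after its values were seen. Added together the pair had 4, 32 and 51 reads in DNMT3L and 26, 18 and 26 reads in control, which overlap, so the separation of Cpr67Fa2 does not hold for the pair. Whether the counting divides their reads correctly was not tested.

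The Ccp84A cluster (3R:6686728-6704903) was expressed at a low level, its 7 genes summing to 3.03, 4.18 and 3.34 CPM in DNMT3L and to 8.81, 2.60 and 5.24 CPM in control. Ccp84Aa had 1.92, 1.59 and 1.67 CPM in DNMT3L and 4.5, 0.976 and 3.36 CPM in control, at −0.77 ± 0.55 (edgeR adjusted p = 0.41). Ccp84Ag had 0.106, 1.22 and 0.354 CPM in DNMT3L and 3.34, 0.108 and 1.08 CPM in control, at −1.42 ± 1.18 and −0.09 without control 1. Ccp84Ab went the other way within its error, with 0.852, 1.11 and 1.11 CPM in DNMT3L and 0.669, 1.25 and 0.569 CPM in control (0.30 ± 0.42, edgeR adjusted p = 0.65). In all 3 genes the control libraries spanned the DNMT3L values or nearly so.

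Tweedle transcripts summed to 7.29, 12.6 and 7.79 CPM in DNMT3L and to 14.1, 11.6 and 10.6 CPM in control, and these overlap. TwdlV was the other tested member with a positive estimate, having 0.905, 5.61 and 2.78 CPM in DNMT3L and 4.5, 0.759 and 1.76 CPM in control (0.41 ± 0.82, edgeR adjusted p = 0.75). Its sign changed when DNMT3L 2 was left out (−0.33) and when control 2 was (−0.02). The largest Tweedle cluster, 13 genes from TwdlM to Tb on 3R:26619118-26657531, had no gene above the filter and 5 genes without a read. Tb, whose dominant Tubby allele is a common larval marker on TM6B, had no read in DNMT3L libraries and 0, 2 and 1 reads in control libraries. Levels this low allow no statement about a difference in Tb.

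The 59 members with reads that were not tested had 1 to 81 reads each over the 6 libraries, with a median of 9 reads. Added together they gave 441 reads in DNMT3L libraries against 577 in control libraries, with 30 genes lower in DNMT3L, 26 higher and 3 equal. The shared direction of the tested members was thus not visible as a clear majority below the filter.

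**Figure D4:**
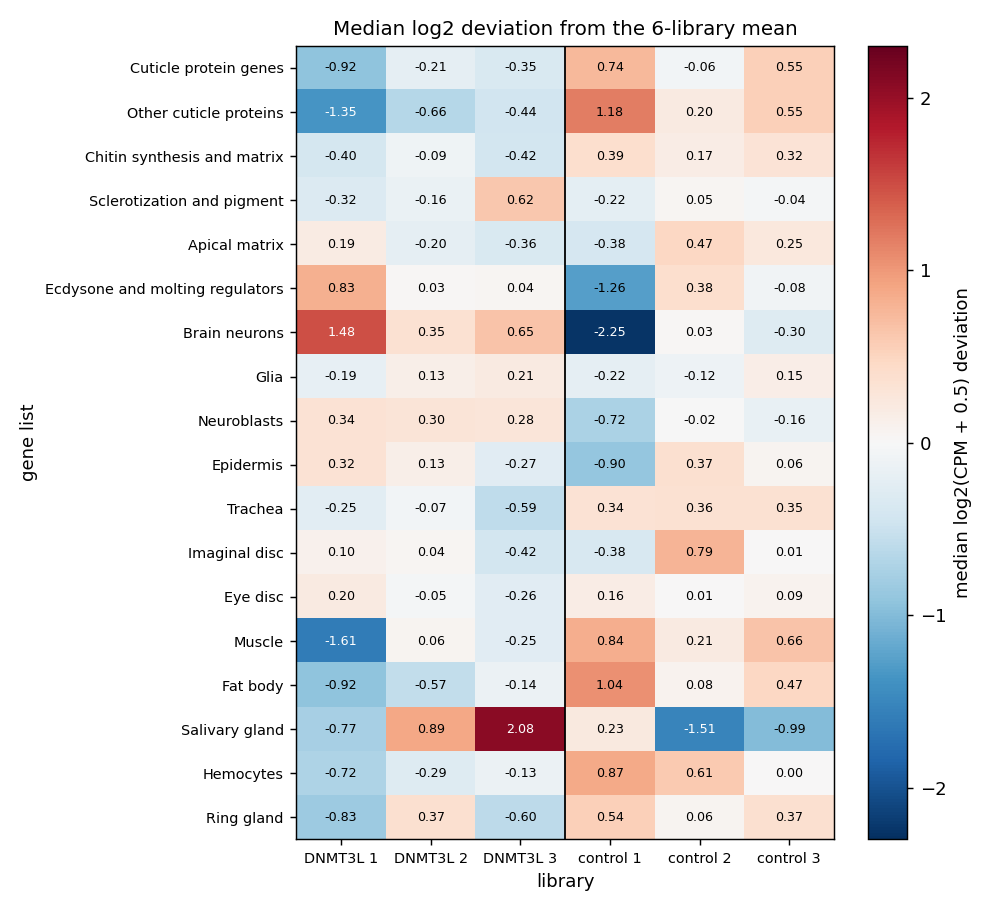
Median log2 deviation of each gene list from the 6-library mean (colour and printed value), DNMT3L libraries left of the line and control libraries right of it. Cuticle protein genes run from −0.92 in DNMT3L 1 to 0.74 in control 1. The other cuticle protein, muscle, fat body, hemocyte and ring gland lists are also lowest in DNMT3L 1 and highest in control 1. The ecdysone, neuron and neuroblast lists run the opposite way, highest in DNMT3L 1 and lowest in control 1.

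Other genes of cuticle formation, in lists that stand outside the symbol rule, were then compared. Of 12 further cuticle proteins 5 were tested, all 5 negative, with a median of −1.25. Vajk2, a cuticle barrier protein, had 3.94, 4.71 and 19.6 CPM in DNMT3L and 37.7, 16.3 and 49.6 CPM in control, overlapping through DNMT3L 3. Its neighbour in rank, Vajk3, had 3.35, 4.87 and 18.1 CPM in DNMT3L and 26.3, 7.7 and 31.7 CPM in control. Chitin synthesis and matrix genes behaved more evenly: 21 of 22 tested were negative with a median of −0.64, and none passed edgeR's adjusted test. DESeq2 called Gfat1 (adjusted p = 0.0317), exp (0.0122), verm (0.018) and serp (0.0193) of this list as lower in DNMT3L, against 1.51% of all genes. An unadjusted edgeR p under 0.05 was found for 14 of the 22 in the lower direction (8.79% of all genes) and for 1 in the higher. Complete separation held for 13 as lower (14.1% of all genes) and for 1, Cda5, as higher.

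Verm, a chitin deacetylase of the tracheal lining, had 132, 206 and 133 CPM in DNMT3L, against 309, 275 and 300 CPM in control (−0.91 ± 0.21, edgeR adjusted p = 0.30, DESeq2 adjusted p = 0.018). The groups did not overlap, and control 1 did not stand out there. Cht10, a chitinase, overlapped with 256, 167 and 129 CPM in DNMT3L and 122, 339 and 210 CPM in control. Sclerotization and pigment genes, which harden and colour the cuticle, had a median of 0.02 over 7 tested, with 3 negative and 4 positive. Among the 3, chosen after their values were seen, Gld separated at −1.71 ± 0.47 (edgeR adjusted p = 0.32, DESeq2 adjusted p = 0.0269) and yellow-f at −2.24 ± 0.55 (edgeR adjusted p = 0.30, DESeq2 adjusted p = 0.0067). Of the genes with the most reads, Ddc, also used in dopamine neurons, had 29.7, 23.1 and 39.7 CPM in DNMT3L and 19.6, 21 and 24.9 CPM in control, and ebony (e) had 12.5, 9.84 and 12 CPM in DNMT3L and 6.87, 11.4 and 15.5 CPM in control. Apical matrix genes had a median of −0.29 over 12 tested, 9 of them negative. With the length trend removed the median was −0.58, with 11 of 12 negative. In this list pio had 147, 108 and 106 CPM in DNMT3L and 165, 229 and 183 CPM in control, separated, and qsm overlapped at −0.59 ± 0.29. Regulators of ecdysone response and molting had a median of 0.52 over 22 tested, 17 of them positive, which became −0.11 after removal of the length trend. Within that list, br and crol, both transcription factors, had estimates of 0.85 ± 0.55 and 0.82 ± 0.35.

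Several marker lists of tissues other than brain were lower alongside the cuticle protein genes and others were not, with no marker past edgeR's adjusted test. DESeq2 called the trachea markers verm and serp, Lsp1gamma of fat body (adjusted p = 9.4e-05) and NimC1 of hemocytes (0.0138) as lower. It called the neuron marker cac (0.0143) as higher, against 2.36% of all genes in either direction. All listed markers had at least 1 read in some library. Of 10 muscle markers 8 were negative, with summed levels of 155 to 380 CPM in DNMT3L and 445 to 847 CPM in control. Fat body markers were negative for 5 of 6, at 842 to 1066 CPM in DNMT3L and 1286 to 2162 CPM in control. Trachea markers were negative for 5 of 6, at 383 to 533 CPM in DNMT3L and 776 to 821 CPM in control, most of it from Gasp, verm, serp and pio. The tracheal regulators overlapped, trh with 29, 21.4 and 21.2 CPM in DNMT3L and 8.02, 24.2 and 17.7 CPM in control (0.52 ± 0.40) and btl at −0.37 ± 0.33. For hemocyte markers it was 6 of 6, at 227 to 325 CPM in DNMT3L and 376 to 487 CPM in control. The summed levels of these 4 lists did not overlap between groups. Ring gland markers were negative for 6 of 6, at 396 to 840 CPM in DNMT3L and 813 to 1035 CPM in control. Median log2 fold changes were −1.20 for muscle, −1.07 for fat body, −0.79 for trachea, −0.87 for hemocyte and −0.76 for ring gland markers. In the same order they were −0.92, −0.80, −0.78, −0.63 and −0.69 without control 1. With the length trend removed they were −1.40, −1.13, −0.89, −1.49 and −0.63. Without DNMT3L 1 and control 1 they were −0.53, −0.59, −0.74, −0.61 and −0.35, with 4 of 6 ring gland markers negative.

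Lists for the epidermis and discs overlapped. Epidermal regulators (grh, vvl, ovo, sr and drm) were negative for 1 of 5 (3 of 5 with the length trend removed), at 160 to 267 CPM in DNMT3L and 106 to 251 CPM in control. Imaginal disc markers were negative for 3 of 5, at 87.5 to 134 CPM in DNMT3L and 72.7 to 127 CPM in control. Salivary gland secretion genes went the other way, positive for 6 of 6 with a median of 1.74, at 25.5 to 198 CPM in DNMT3L and 13.0 to 56.4 CPM in control. Glia markers overlapped (873 to 1357 CPM in DNMT3L and 1085 to 1488 CPM in control), while neuroblast markers were higher in DNMT3L (402 to 453 CPM) than in control (217 to 373 CPM). Eye disc markers were negative for 4 of 6, at 483 to 660 CPM in DNMT3L and 573 to 588 CPM in control. With the length trend removed, eye disc markers were negative for 6 of 6 (median −0.46) and imaginal disc markers for 4 of 5 (median −0.12). Without DNMT3L 1 and control 1, eye disc markers were negative for 5 of 6, and imaginal disc markers and epidermal regulators for 4 of 5 each. The trachea list shares verm, serp and Gasp with the chitin list and pio with the apical matrix list. The part of these tissues, of transcript size and of the 2 libraries in the cuticle protein result was not tested beyond the values without them.

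**Figure D5:**
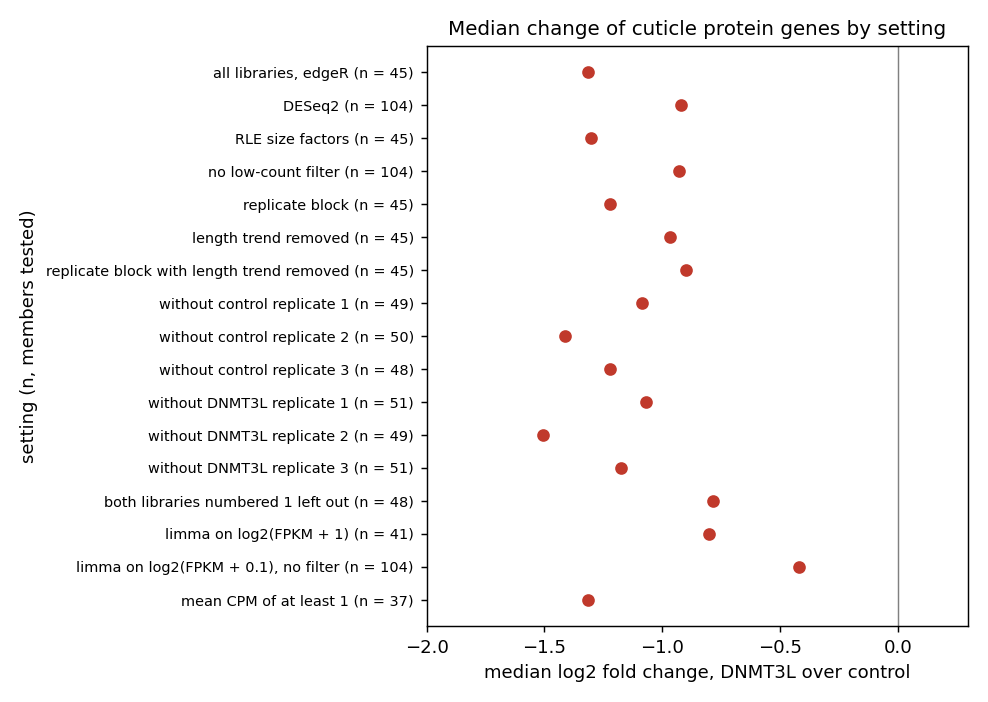
Median log2 fold change (horizontal axis, DNMT3L over control) of the tested cuticle protein genes under each processing setting, with the number of members tested in brackets. All medians lie below 0, between −1.51 without DNMT3L 2 and −0.42 with limma on log2(FPKM + 0.1).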

How the data were processed

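RNA-seq measured 3 DNMT3L and 3 control larval brain samples, grouped by labelled genotype. HISAT2 2.0.1 and HTSeq 0.6.1, besides cutadapt 1.9.1, DESeq2 and bcl2fastq 2.17.1.14, are named per the submitters' processing notes, as are the builds dm6 and BDGP6. Roles, annotation release and strand setting are not given in the sources. Extraction used TRIzol or a column kit, per the labels' protocols, followed by poly(A) isolation or rRNA removal, with no record of which was used where. The deposited table holds whole-number read counts and FPKM per gene, and these FPKM follow from counts, exonic size and total count for 100% of values (tolerance 0.0051). All 121 members had identical coordinates in Ensembl release 115.

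Counts were tested with edgeR 4.0.16 in R 4.3.3 (filterByExpr, which kept 9495 and removed 8242 genes; TMM; glmQLFit and glmQLFTest, two-sided, Benjamini-Hochberg over all genes tested, threshold 0.05). SE values are those implied by the F statistic. Totals of 17928420 to 19251845 counts set the floor of 3 counts, which covers counting error only. Alternatives were DESeq2 1.42.0, limma 3.58.1 on log2(FPKM + 1) with a mean FPKM of at least 1 and on log2(FPKM + 0.1), RLE factors, no filter, removal of a loess trend on exonic size (span 0.5), a replicate block and left-out libraries. Medians and counts over a list are descriptions without a test. Figures used matplotlib 3.10.9 in Python 3.11.15.

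Members, lists and tests were chosen with earlier results of these data known. Named were Tb, all tested Lcp and Ccp84A genes, the 12 members of highest mean CPM, the 8 of lowest p, the 6 of largest change, members of opposite sign, and 2 genes per related list; of 154 list entries 3 matched no gene. Promoter motifs and protein identities, planned from sequence tables, were not analysed here.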

Additional observations from a re-analysis of the deposited data

How the results depend on the processing

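The member median stayed negative under each setting tried. It was −0.92 with DESeq2 (76 of 104 members negative, 7 called), −0.80 with limma on log2(FPKM + 1), −0.42 with limma on log2(FPKM + 0.1) and no filter (74 of 104 negative), and −0.79 without both libraries numbered 1, where the summed CPM had a log2 ratio of −0.58 and 21 members (43.8%, against 21.9% of all genes) did not overlap. Without a low-count filter 76 of 104 members were negative. Over all genes, 256 were called by DESeq2, 2 with RLE size factors, 6 without a filter, 12 with the length trend removed, 16 without both libraries numbered 1, 10 with limma on log2(FPKM + 1) and 8 with limma on log2(FPKM + 0.1). The cause of these differences was not tested.

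With each library left out in turn, no member was called, the median ran from −1.51 to −1.07, 40 to 48 members were negative, the log2 ratio of the summed CPM ran from −1.62 to −0.81, and 15 to 26 members did not overlap, with 26 without control 2 (52%, against 28.4% of all genes) and 21 without DNMT3L 2 (42.9%, against 21.3%). Over the 6 omissions the share lower without overlap was 31.2% to 52% of members and 16.6% to 28.4% of all genes, and with all libraries 26.7% of members and 14.1% of all genes.

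Deviations of same-numbered libraries from their group means correlated at −0.71, −0.58 and −0.21. Deviations within a group depend on one another, so these values cannot decide whether same-numbered libraries were handled as pairs. With the replicate block, edgeR called 0 members, the median was −1.22 and 43 members were negative; block and length trend removal together gave a median of −0.90. The separation and the summed CPM have no value under a block.

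Signs reversed for 8 single genes. Lcp65Ac was 0.22 with the length trend removed, 0.68 without both libraries numbered 1 and −1.47 to 0.46 over single omissions. Without both, Lcp3 was 0.42, Ccp84Ag 0.40 and Cpr64Aa 0.046. Cpr12A was 0.11 with block and length trend removal. Over single omissions Lcp3 ran from −1.06 to 0.027 (highest without control 1), Cpr12A from −0.77 to 0.31 and Cpr49Ac from −0.97 to 0.073 (both highest without control 2), Lcp9 from −2.50 to 0.092 (highest without control 3), and TwdlV from −0.33 (without DNMT3L 2) to 1.29, with −0.02 without control 2. For the named genes, 388 of the alternative values kept direction and side of the threshold, 16 reversed, and 6 passed it, all with DESeq2.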

Other observations

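The abundance ratios within the Lcp1 to Lcp4 cluster were examined after the values were seen and are descriptions. The FPKM of Lcp4 over that of Lcp3 was 1.88, 1.76 and 2.03 in DNMT3L 1 to 3, against 4.89, 3.47 and 3.96 in control 1 to 3, so the ratio was lower in each DNMT3L library, including DNMT3L 2, where both genes had CPM values above those of control 2. The FPKM of Lcp1 over that of Lcp2 was 2.13, 2.19 and 2.96 in DNMT3L and 1.10, 2.28 and 1.32 in control, and these overlap.

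Cda9, a chitin deacetylase of the chitin list, was at 135 CPM in control 3 and at no more than 0.217 CPM in the other 5 libraries. It did not pass the low-count filter. Of the chitin genes, Cda5, another deacetylase, was the 1 tested gene with a positive estimate, with 14.1, 8.52 and 7.59 CPM in DNMT3L and 1.82, 4.83 and 4.84 CPM in control (1.39 ± 0.45, edgeR adjusted p = 0.33).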
